A study of Arabidopsis thaliana with 12 samples.

Results

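Aquaporins are membrane channels that let water, and in some members small uncharged solutes, cross plant membranes. The 35 aquaporin genes of *Arabidopsis thaliana* were chosen by locus: 13 plasma membrane intrinsic protein genes (5 PIP1 and 8 PIP2), 10 tonoplast intrinsic protein genes (TIP), 9 nodulin 26-like genes (NIP) and 3 small basic intrinsic protein genes (SIP). All 35 were found among the 33602 genes of the count table. The names used here follow the UniProt form, so that PIP2-1 is the gene also written with a semicolon before the last digit.

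RNA was sequenced from seedlings in 4 groups of 3 libraries: OK100-oct treated with abscisic acid (ABA), untreated OK100-oct (control), wild type treated with ABA and untreated wild type (control). Wild type is the accession Col-0, and OK100-oct is a gene-edited octuple mutant in that background, null for 8 protein kinase genes of the RAF family (numbers 3, 4, 5, 7, 8, 9, 10 and 11, of which raf5 is also sis8). The labels call the mutant m9 and do not state its alleles. It is taken as OK100-oct because the methods name that line for RNA sequencing, and the label does not exclude OK100-nonu, which lacks a further RAF. The labels give an age of 12 days and seedlings as the tissue for all libraries, while the methods give a slightly greater age. Dose and duration of ABA are not given for this experiment, and although the study states that seedlings came from different plates, it does not say how plates map to the 3 libraries of a group, so p-values measure the spread between these libraries only.

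PIPs sit in the plasma membrane and TIPs in the tonoplast, the membrane around the vacuole, and together they set much of the water permeability of root and leaf cells. PIP1 proteins reach the plasma membrane together with PIP2 proteins, as shown in maize. NIPs carry small solutes such as boric acid, arsenite or lactic acid, and SIPs lie in the endoplasmic reticulum. ABA is the hormone of water deficit, which closes stomata and changes the abundance of many aquaporin transcripts.

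Each aquaporin subunit carries a pair of signature boxes that start with asparagine and proline (Asn-Pro) and line the pore. In the reference coding sequences, 27 of the 35 members had alanine as the third residue of both boxes, and the 8 others were 5 NIPs and all 3 SIPs. The stretches around the first box are shown for a member of each family, with the 9 bases of the box in capitals, because the first box of these NIP and SIP genes differs from that of the PIPs and TIPs, which had alanine in both boxes throughout. Serine was found there in NIP5-1 and NIP7-1, while the 7 other NIPs had alanine in the first box. They are on the coding strand of the RefSeq TAIR10.1 assembly, at chr3:19804651-19804677 on the minus strand for PIP2-1, chr3:9723431-9723457 on the minus strand for TIP1-2, chr4:6432360-6432386 on the minus strand for NIP5-1 and chr3:1073807-1073833 on the minus strand for SIP1-1. The third codon of the box reads alanine in PIP2-1 and TIP1-2, serine in NIP5-1 and threonine in SIP1-1.
PIP2-1: ggtcacattAACCCAGCGgtgacattt
TIP1-2: ggccacgttAACCCTGCCgttaccttc
NIP5-1: gctcacctaAACCCATCActgaccata
SIP1-1: gctagcttcAATCCTACCggaagcgct

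Total counts per library ranged from 16632701 to 26661613. Values are given as CPM, a gene's counts scaled to a common library size by the library total and edgeR's TMM factor, and levels of different genes are compared as CPM per kb of exon. Wild-type control replicate 3 stood apart from its group, with a chi-square per gene of 26.8 and 45.5 against its group's other libraries, which gave 13.4 against each other. OK100-oct control replicate 1 also stood apart, with 24.4 and 14.5 against its group's other libraries and 8.90 between those. Transcripts of 5 of the 8 mutated RAFs were lower in OK100-oct control than in wild type control, those of 6 were lower with ABA, and none was higher (edgeR's quasi-likelihood test, adjusted p under 0.05). Of all tested genes, 2.29% were lower in OK100-oct without ABA and 20.7% with ABA. Markers of green tissue and of roots were both detected. The summed CPM of 9 photosynthesis genes was 29351 to 31838 in OK100-oct with ABA, 33821 to 39485 in OK100-oct control, 18509 to 20459 in wild type with ABA and 30535 to 33648 in wild type control. The summed CPM of 9 endodermis and root hair genes was 63.6 to 88.4 in OK100-oct with ABA, 48.4 to 57.5 in OK100-oct control, 72.1 to 74.0 in wild type with ABA and 37.9 to 57.4 in wild type control. Both sums therefore moved with ABA, and their part in the results on aquaporins was not tested. In bulk RNA from seedlings, fewer cells of a type and less RNA per cell cannot be told apart.

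Aquaporin transcripts were more abundant with ABA in both genotypes. All 35 genes together summed to 9449, 8642 and 9859 CPM in OK100-oct with ABA, against 4901, 5854 and 5827 CPM in OK100-oct control. In wild type they summed to 10318, 9327 and 9394 CPM with ABA, against 5775, 5573 and 7640 CPM in control. The libraries with ABA did not overlap those without it in either genotype, and the ratio of the means was 1.69 in OK100-oct and 1.53 in wild type. Without TMM factors, the 35 genes held 0.904%, 0.851% and 0.950% of the library totals in OK100-oct with ABA, against 0.544%, 0.639% and 0.624% in OK100-oct control. In wild type they held 0.893%, 0.835% and 0.812% with ABA, against 0.646%, 0.602% and 0.798% in control. There, control replicate 3 lay close to the lowest library with ABA. Between the genotypes the ranges overlapped in both treatments. Wild-type control replicate 3 had the highest sum of the control libraries, and OK100-oct control replicate 1 the lowest.

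The subfamilies contributed very unequally to the summed level per kb of exon. TIPs made up 45.9% to 56.5% of it over the 12 libraries, PIP1s 20.3% to 28%, PIP2s 20.6% to 24.9%, SIPs 1.18% to 1.79% and NIPs 0.301% to 0.895%. A single gene, TIP1-2, held 29.7% to 35.9%. With ABA the summed level per kb of PIP1 was 1.85 times that of control in OK100-oct and 1.95 times in wild type, and for PIP2 the ratios were 1.65 and 1.61. The TIP sum was 1.63 times the control in OK100-oct and 1.25 times in wild type, where replicate 3 of the control libraries, at 3088 CPM per kb, lay within the range of the libraries with ABA (2982 to 3267). The NIP sum went the other way, at 0.747 times the control in OK100-oct and 0.895 times in wild type. Its mean went from 28.4 to 21.2 CPM per kb in OK100-oct and from 23.6 to 21.1 in wild type. In OK100-oct most of that was 1 member, NIP1-1, which went from 7.59 to 0.973 CPM per kb. In wild type NIP1-1 went from 2.61 to 0.448, NIP5-1 from 6.77 to 4.19 and NIP3-1 from 3.27 to 1.43. NIP1-2 went up there, from 8.33 to 12.9. The NIP sums of wild type overlapped, at 19.63 to 22.35 CPM per kb with ABA and 22.23 to 25.31 in control. The SIP sum was 1.34 times the control in OK100-oct and 1.78 times in wild type. All of these ratios use TMM factors and were not taken with library totals. The factors were 0.957 to 0.985 with ABA and 1.07 to 1.11 in control in OK100-oct. In wild type they were 0.864 to 0.896 with ABA and 1.04 to 1.12 in control.

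**Figure D1:**
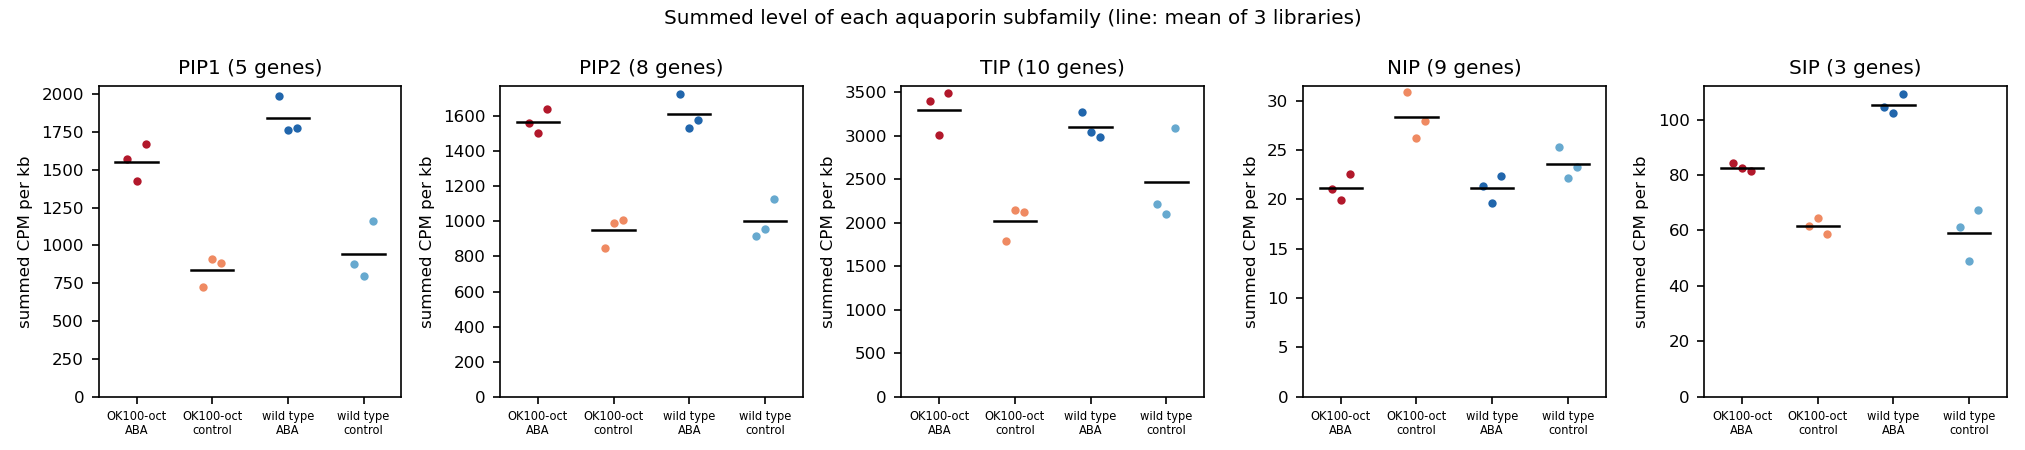
Summed level of each aquaporin subfamily, in CPM per kb of exon (y axis, from 0), in the 3 libraries of each of the 4 groups (x axis), with the mean as a line. PIP1 and PIP2 libraries with ABA lie above all control libraries of their genotype, wild-type control replicate 3 stands high for TIP (3088), and the NIP sum is highest in the OK100-oct control libraries.

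Of the 35 genes, 29 passed the count filter of the test and 6 did not. TIP1-3 (AT4G01470), TIP5-1 (AT3G47440) and NIP4-1 (AT5G37810), all known for expression in pollen, had 0 counts in every library. NIP4-2 (AT5G37820), also a pollen gene, had at most 2 counts, and NIP2-1 (AT2G34390), a lactic acid channel of the root, at most 8. A count of 0 allows up to 3 counts, which is 0.112 to 0.167 CPM depending on the library. TIP3-1 (AT1G73190), a tonoplast aquaporin of seed storage vacuoles, had 0, 3 and 0 counts in OK100-oct with ABA and 0 in each OK100-oct control library, against 6, 7 and 7 counts in wild type with ABA and 0, 0 and 1 in wild type control. These counts are too few for a test. Exon windows of NIP2-1 and TIP3-1 also overlap genes on the opposite strand, for 63.6% and 23.4% of their 50-base windows and the sources used here do not say whether the counting used strand.

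Levels of the 29 tested genes spanned a wide range. TIP1-2 (AT3G26520), a water and urea channel of the tonoplast, had the highest mean over all libraries, 1784 CPM per kb. Next came TIP2-1 (AT3G16240), a tonoplast channel for water and ammonia, at 522 CPM per kb, PIP2-1 (AT3G53420), a main water channel of roots and guard cells, at 477, and PIP2-7 (AT4G35100), a water channel of most organs, at 467. The most abundant PIP1 was PIP1-2 (AT2G45960), a water channel of root and leaf, at 440.4 CPM per kb. The highest SIP was SIP1-1 (AT3G04090), a water channel of the endoplasmic reticulum, at 52.4 CPM per kb. The highest NIP was NIP1-2 (AT4G18910), which carries aluminium malate in roots, at 9.21 CPM per kb. The lowest tested gene was NIP7-1 (AT3G06100), a boric acid channel of anthers, at 0.303 CPM per kb. PIP2-1, PIP2-7 and PIP1-2 were close together, and their order differed between groups. Other ranks also hold for the mean over all libraries only. In wild type with ABA, PIP1-3 was at 621 CPM per kb, above PIP1-2 at 552, and TIP2-1 was below both at 472. In OK100-oct control, NIP5-1 (7.70) and NIP1-1 (7.59) were above NIP1-2 (7.18).

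**Figure D2:**
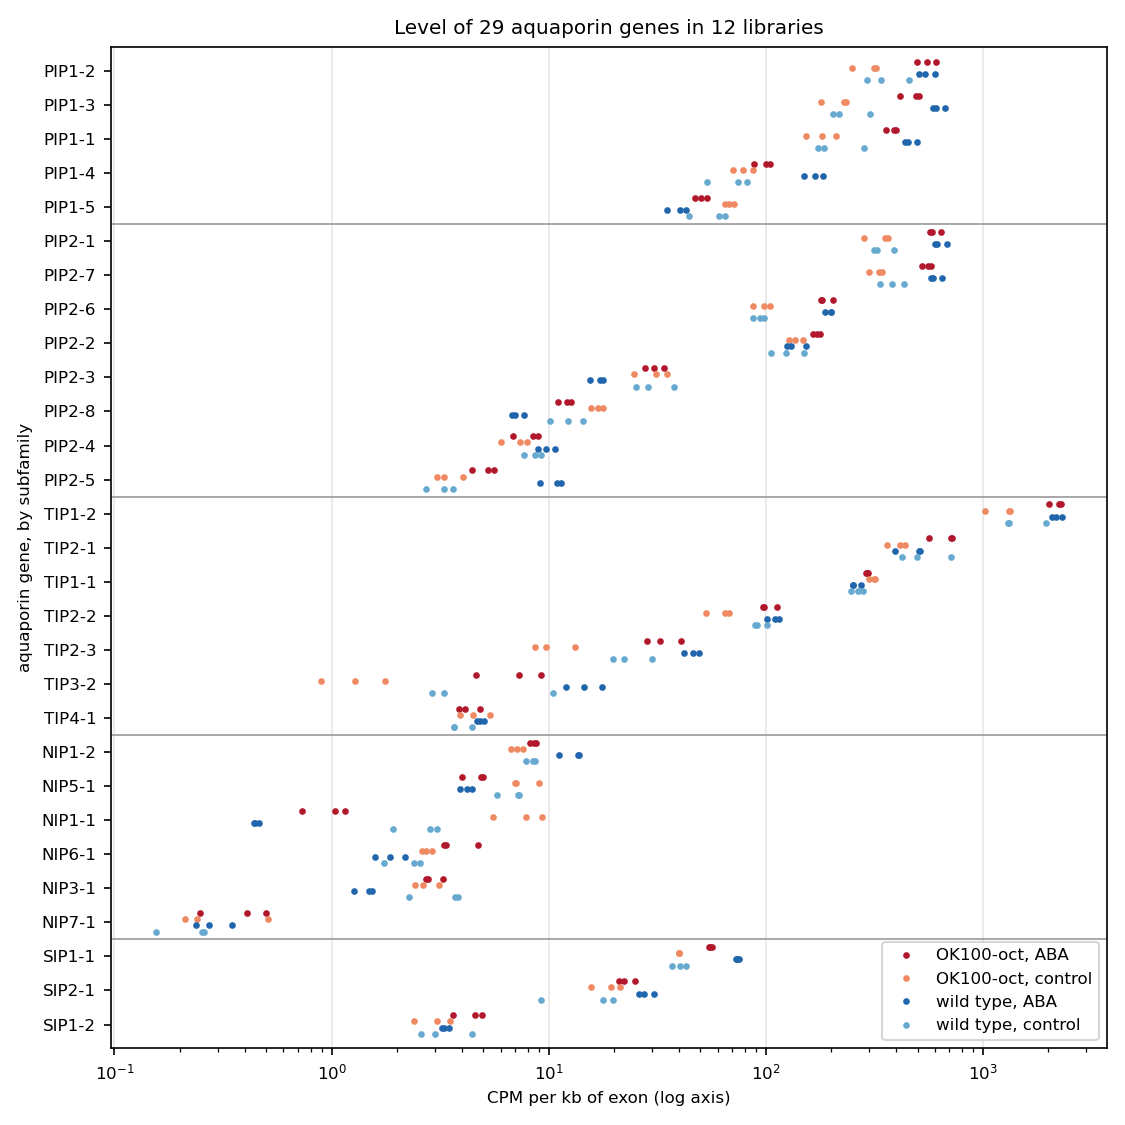
Level of the 29 tested aquaporin genes in CPM per kb of exon (x axis, logarithmic) in each of 12 libraries, 3 points per group, ordered by mean level within PIP1, PIP2, TIP, NIP and SIP. TIP1-2 lies farthest right (mean 1784), and NIP7-1 farthest left (mean 0.303).

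ABA raised more aquaporin genes than it lowered in OK100-oct. Of the 29 tested members, 15 were higher and 4 lower with ABA (edgeR's quasi-likelihood test, Benjamini-Hochberg adjusted p under 0.05), beside 25.9% and 26.1% of the 20617 tested genes. The median log2 fold change was 0.47 over the members and -0.01 over all tested genes. In wild type 14 members were higher and 6 lower with ABA, beside 32.2% and 36.4% of all tested genes, and the medians were 0.35 and -0.06. The same shares of all tested genes stand beside the counts by subfamily that follow. With library totals in place of TMM factors, 12 were higher and 9 lower in wild type and 12 higher and 5 lower in OK100-oct, while the median of all genes shifted by -0.30 and -0.17. Most members changed by less than 3-fold. A change of at least 3-fold was found upward for 2 and downward for 1 member in OK100-oct, beside 3.56% and 2.43% of all genes, and upward for 1 and downward for 1 in wild type, beside 7.18% and 7.16%.

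**Figure D3:**
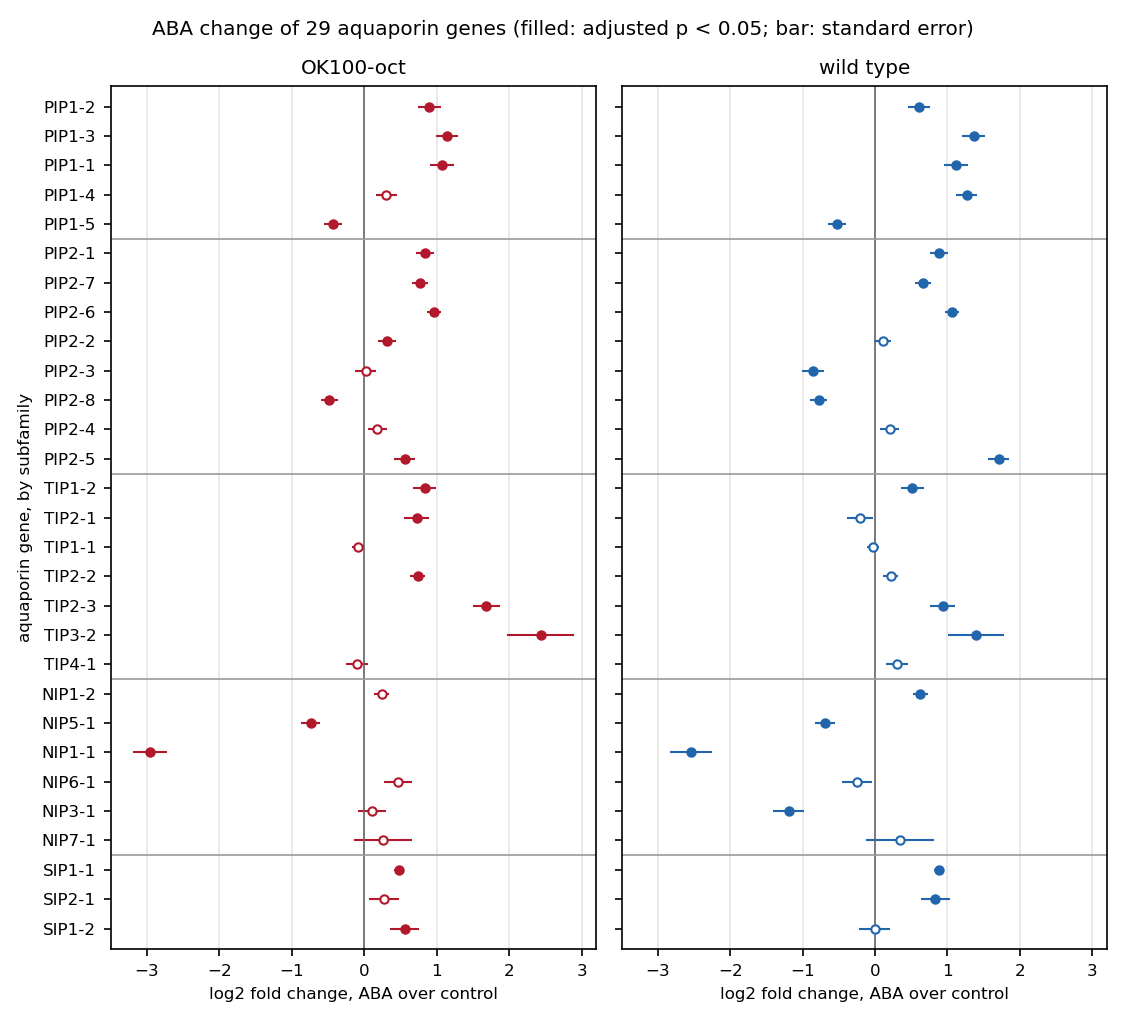
Log2 fold change of ABA over control (x axis) for the 29 tested aquaporin genes in OK100-oct (left) and wild type (right), with bars of 1 standard error and filled points for an adjusted p under 0.05. NIP1-1 is the lowest point in both panels (-2.96 and -2.54), TIP3-2 is the highest in OK100-oct (2.44) and PIP2-5 the highest in wild type (1.71).

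In the PIP1 subfamily, 3 of the 5 genes rose and 1 fell with ABA in OK100-oct, and 4 rose and 1 fell in wild type. PIP1-1 (AT3G61430) and PIP1-3 (AT1G01620), both plasma membrane water channels, rose to a similar degree in the genotypes, with log2 fold changes of 1.08 and 1.14 in OK100-oct and 1.11 and 1.36 in wild type. PIP1-2 was at 880.3, 794 and 969 CPM in OK100-oct with ABA, against 397, 516 and 505 CPM in OK100-oct control. In wild type it was at 966, 866 and 811 CPM with ABA, against 539, 468 and 727 CPM in control. The libraries with ABA were above the control libraries in both genotypes, with a log2 fold change of 0.90 ± 0.16 (SE) in OK100-oct and 0.61 ± 0.16 in wild type (edgeR's adjusted p = 0.00046 and 0.00375). With library totals the call in wild type was lost (log2 fold change 0.31, adjusted p = 0.0725, edgeR).

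PIP1-5 (AT4G23400), a water channel expressed at a lower level, was the PIP1 gene that fell. It was at 66.9, 63.0 and 71.1 CPM in OK100-oct with ABA and 86.4, 95 and 90.2 CPM in OK100-oct control. Wild type had 46.8, 56.7 and 53.3 CPM with ABA and 80.5, 58.8 and 86.3 CPM in control. The change was -0.43 ± 0.12 (SE) on the log2 scale in OK100-oct and -0.53 ± 0.12 in wild type (edgeR's adjusted p = 0.00985 and 0.00198). With ABA, OK100-oct was higher than wild type by 0.36 on the log2 scale (adjusted p = 0.0324, edgeR). That genotype difference was lost without any 1 of 5 libraries with ABA, namely OK100-oct replicates 1, 2 and 3 and wild-type replicates 1 and 3 (adjusted p = 0.0716, 0.0643, 0.11, 0.136 and 0.0671, edgeR).

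PIP1-4 (AT4G00430), a water channel described as raised by drought in leaves, rose in wild type. In OK100-oct it did not pass in the fit of all libraries. It was called higher there with only the 2 groups and without wild-type control replicate 3 (adjusted p = 0.023 and 0.0198, edgeR). In OK100-oct it was at 177, 208 and 199.5 CPM with ABA, against 156, 142 and 175 CPM in control, a log2 fold change of 0.31 with a 95% interval of 0.00 to 0.61 that did not pass the test (adjusted p = 0.0856, edgeR). In wild type it was at 366, 301 and 338 CPM with ABA, against 148, 163 and 107 CPM in control, a log2 fold change of 1.26 ± 0.14 (SE, adjusted p = 4.43e-06, edgeR). Every OK100-oct library with ABA was below every wild-type library with ABA.

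In the PIP2 subfamily, 5 of the 8 genes rose and 1 fell with ABA in OK100-oct, and 4 rose and 2 fell in wild type. PIP2-1 was at 896, 916 and 1005 CPM in OK100-oct with ABA, against 445, 554 and 576 CPM in OK100-oct control. Wild type had 1072, 944 and 969 CPM with ABA, against 494, 513 and 612 CPM in control. The groups with and without ABA were far apart and the change was nearly the same in the genotypes, 0.84 ± 0.12 (SE) in OK100-oct and 0.88 ± 0.12 in wild type on the log2 scale (edgeR's adjusted p = 0.000107 and 2.46e-05). Its difference between the genotypes was -0.04, with a 95% interval of -0.41 to 0.33. PIP2-6 (AT2G39010), another water channel, and PIP2-7 rose in the same way, with log2 fold changes of 0.96 and 0.77 in OK100-oct and 1.07 and 0.66 in wild type. PIP2-4 (AT5G60660), a root channel for water and hydrogen peroxide, changed by 0.18 in OK100-oct and 0.20 in wild type and passed in neither (adjusted p = 0.277 and 0.192, edgeR).

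PIP2-5 (AT3G54820), a low-abundance water channel also described as raised by drought, had the largest rise among the members in wild type with all libraries. Without wild-type control replicate 3, it was at 1.60 on the log2 scale and TIP3-2 at 2.25. In OK100-oct it was at 7.90, 9.39 and 9.97 CPM with ABA, against 5.47, 7.20 and 5.92 CPM in control, a 1.47-fold rise (log2 0.56 ± 0.15 SE, adjusted p = 0.00678, edgeR). In wild type it was at 19.6, 20.4 and 16.3 CPM with ABA, against 5.91, 6.51 and 4.90 CPM in control, a 3.27-fold rise (log2 1.71 ± 0.15 SE, adjusted p = 3.38e-07, edgeR). Control libraries of the genotypes overlapped, and the libraries with ABA did not. With library totals the rise in OK100-oct no longer passed (log2 0.38, adjusted p = 0.053, edgeR).

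PIP2-2 (AT2G37170) and PIP2-3 (AT2G37180), water channels of the root, are neighbours on chromosome 2. PIP2-2 lies on the minus strand at chr2:15613368-15615022 and PIP2-3 on the plus strand at chr2:15617635-15619155. Their coding sequences were identical at 94.8% of 858 aligned bases, with an identical run of up to 242 bases, and 14.7% of the 50-base exon windows of PIP2-2 and 16.5% of those of PIP2-3 occur in the other gene. Reads that lie wholly in shared sequence cannot be assigned by sequence, so both counts are uncertain. The windows are shorter than the paired reads of the study, so these shares are not the share of such reads. The 120 coding bases with the most differences (16, in capitals in both) are shown because they are what separates reads of the pair, at chr2:15614137-15614256 on the minus strand for PIP2-2 and chr2:15618314-15618433 on the plus strand for PIP2-3.
PIP2-2: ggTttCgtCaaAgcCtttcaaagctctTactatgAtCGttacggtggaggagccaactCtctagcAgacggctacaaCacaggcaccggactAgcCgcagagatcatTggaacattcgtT
PIP2-3: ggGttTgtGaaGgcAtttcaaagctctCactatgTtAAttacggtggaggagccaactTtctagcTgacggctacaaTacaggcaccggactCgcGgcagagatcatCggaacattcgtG

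The values of the pair with ABA were not alike. PIP2-3 was at 37.3, 33.9 and 41.5 CPM in OK100-oct with ABA, against 30.3, 42.9 and 38.2 CPM in OK100-oct control (log2 fold change 0.02 ± 0.15 SE, adjusted p = 0.925, edgeR). In wild type it fell to 21.1, 18.9 and 21.8 CPM with ABA, against 35.1, 30.9 and 45.9 CPM in control (log2 fold change -0.86 ± 0.15 SE, adjusted p = 0.00021, edgeR). Only the 3 wild-type libraries with ABA were low. PIP2-2 was at 231, 221 and 239.8 CPM in OK100-oct with ABA and 172, 201 and 183 CPM in OK100-oct control. It was at 205, 168 and 176 CPM in wild type with ABA and 167, 142 and 201 CPM in wild type control, where the ranges overlapped. The change of PIP2-2 was 0.32 in OK100-oct (adjusted p = 0.0418, edgeR) and 0.11 in wild type (adjusted p = 0.455, edgeR) on the log2 scale. Its change in OK100-oct minus that in wild type was 0.21 and did not pass (adjusted p = 0.422, edgeR). The rise of PIP2-2 in OK100-oct was lost under 9 of 19 alternatives: library totals, the replicate block, and leaving out 1 of 7 libraries (OK100-oct with ABA 1, 2 or 3, OK100-oct control 1 or 3, wild type with ABA 3, wild type control 1), with adjusted p of 0.0507 to 0.285 (edgeR).

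PIP2-8 (AT2G16850), a low-abundance member of the plasma membrane group, fell with ABA in both genotypes. It was at 18.7, 16.4 and 18.0 CPM in OK100-oct with ABA, against 26.2, 23.2 and 25.0 CPM in OK100-oct control. Wild type had 10.3, 11.4 and 10 CPM with ABA, against 21.3, 15.0 and 18.1 CPM in control. The log2 fold change was -0.49 ± 0.12 (SE) in OK100-oct and -0.78 ± 0.12 in wild type (edgeR's adjusted p = 0.00354 and 7.39e-05), and OK100-oct was above wild type in every library of the same treatment.

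In the TIP subfamily, 5 of the 7 tested genes rose with ABA in OK100-oct and 3 in wild type, and none fell in either with TMM factors. TIP1-2 was at 2905, 2594 and 2966 CPM in OK100-oct with ABA, against 1325, 1704 and 1718 CPM in OK100-oct control (log2 fold change 0.83 ± 0.16 SE, adjusted p = 0.00085, edgeR). In wild type it was at 2977, 2688 and 2809 CPM with ABA, against 1706, 1691 and 2532 CPM in control (log2 fold change 0.51 ± 0.16 SE, adjusted p = 0.0111, edgeR). The wild-type call was lost with library totals (log2 0.22, adjusted p = 0.192, edgeR) and without wild-type control replicate 1 (log2 0.42, adjusted p = 0.054, edgeR). TIP1-1 (AT2G36830), the close relative of TIP1-2 and also a water and urea channel, passed in neither genotype. Its log2 fold change was -0.09 in OK100-oct (95% interval -0.27 to 0.09) and -0.03 in wild type (95% interval -0.21 to 0.15). With library totals TIP1-1 was called lower in both, by -0.26 in OK100-oct and -0.33 in wild type (adjusted p = 0.0171 and 0.00273, edgeR), and TIP2-1 was called lower in wild type (-0.51, adjusted p = 0.0151, edgeR). TIP4-1 (AT2G25810), a urea and water channel of roots, changed by -0.10 in OK100-oct and 0.30 in wild type and passed in neither (adjusted p = 0.589 and 0.0933, edgeR).

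The 3 TIP2 genes, tonoplast channels for water and ammonia, all rose in OK100-oct. TIP2-1 was at 847, 672 and 860.2 CPM in OK100-oct with ABA, against 429.7, 520.1 and 492 CPM in OK100-oct control (log2 fold change 0.72 ± 0.18 SE, adjusted p = 0.00411, edgeR). In wild type it was at 601, 613 and 468 CPM with ABA and 592, 507 and 846 CPM in control, with overlapping ranges (log2 fold change -0.21, adjusted p = 0.305, edgeR). Exon windows of TIP2-1 overlap AT3G16250 on the opposite strand for 6.81%. TIP2-2 (AT4G17340), expressed mainly in roots, was at 133, 132 and 152 CPM in OK100-oct with ABA, against 87.5, 91.2 and 71.9 CPM in OK100-oct control (log2 fold change 0.74 ± 0.10 SE, adjusted p = 8.54e-05, edgeR). Wild type had 149, 156 and 137 CPM with ABA and 123, 120.2 and 137 CPM in control (log2 fold change 0.22, adjusted p = 0.0764, edgeR). The wild-type rise of TIP2-2 was called with DESeq2 size factors (0.25, adjusted p = 0.0419, edgeR), with DESeq2's Wald test (adjusted p = 0.0331) and without wild-type control replicate 3 (0.28, adjusted p = 0.0327, edgeR).

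TIP2-3 (AT5G47450), a root gene of the same group, rose in both genotypes. It was at 38.0, 33.2 and 47.4 CPM in OK100-oct with ABA, against 11.3, 15.5 and 10.1 CPM in OK100-oct control, a 3.21-fold rise (log2 1.68 ± 0.18 SE, adjusted p = 9.62e-06, edgeR). Wild type had 54.1, 57.5 and 49.4 CPM with ABA, against 26.0, 23.1 and 35.1 CPM in control, a 1.91-fold rise (log2 0.93 ± 0.18 SE, adjusted p = 0.000358, edgeR). The lowest values were those of the OK100-oct control libraries, and no groups overlapped within a genotype.

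TIP3-2 (AT1G17810), like TIP3-1 an aquaporin of seed storage vacuoles, had the largest rise of any member in OK100-oct. It was at 8.52, 5.42 and 10.9 CPM in OK100-oct with ABA, against 1.05, 2.06 and 1.51 CPM in OK100-oct control, a 5.42-fold rise (log2 2.44 ± 0.46 SE, adjusted p = 0.00076, edgeR). Wild type had 20.6, 17.1 and 14.0 CPM with ABA, against 3.86, 3.39 and 12.3 CPM in control, a 2.63-fold rise (log2 1.39 ± 0.39 SE, adjusted p = 0.00598, edgeR). Wild-type control replicate 3, at 12.3 CPM, was far above its group, and without it the log2 fold change in wild type was 2.25. Of the exon windows of TIP3-2, 44.3% also lie in other genes, 40.3% in AT1G05333 on the opposite strand. Genes of seed storage were looked at beside it. The summed CPM of 11 seed storage, oleosin and Em genes was 0.733 to 6.39 in OK100-oct with ABA, 0.112 to 0.329 in OK100-oct control, 33.5 to 37.8 in wild type with ABA and 0.144 to 0.167 in wild type control. In wild type with ABA, the Em genes EM6 and EM1 had means of 26.4 and 7.13 CPM. The highest mean of the other genes there was 0.763 CPM (OLEO2), and storage protein genes reached at most 0.315 CPM (CRA1). The 6.39 CPM in OK100-oct with ABA was replicate 2 alone, while replicates 1 and 3 were at 0.904 and 0.733 CPM. Only 3 of the 11 passed the count filter, and none was at 0 in all libraries. The sum was low in wild-type control replicate 3, where TIP3-2 was at 12.3 CPM, and its part in the rise of TIP3-2 with ABA was not tested.

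The 300 bases before the annotated start of each member were searched on both strands for ACGTG (the core of the ABA response element), CACGTG (the G-box, which contains that core) and CATGCA (the RY element of seed genes). ACGTG was found before 4 of the 35 members and 25.6% of the 27443 protein-coding genes of the nuclear genome. CACGTG was found before 0 of the 35 and 7.09% of all, and CATGCA before 10 of the 35 and 10.3% of all. Of the 14 members higher with ABA in wild type, 1 (SIP1-1) had ACGTG and 4 had CATGCA, and of the 6 that were lower, 0 had ACGTG and 3 had CATGCA. A match in these windows is a description of the letters and not a site. The last 150 bases before the start of TIP3-1 (chr1:27521794-27521943, plus strand), TIP3-2 (chr1:6129875-6130024, plus strand) and SIP1-1 (chr3:1074245-1074394, minus strand) are shown from RefSeq TAIR10.1 as members with such matches, in capitals. In TIP3-1 a pair of CATGCA matches on opposite strands overlap in the first run of capitals. The TIP3 genes share a run of 17 bases around CATGCA, acttggcacaCATGCAt, which starts 129 bases before TIP3-1 and 136 bases before TIP3-2.
TIP3-1: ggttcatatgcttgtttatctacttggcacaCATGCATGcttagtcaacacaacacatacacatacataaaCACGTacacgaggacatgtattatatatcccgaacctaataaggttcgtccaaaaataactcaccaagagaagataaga
TIP3-2: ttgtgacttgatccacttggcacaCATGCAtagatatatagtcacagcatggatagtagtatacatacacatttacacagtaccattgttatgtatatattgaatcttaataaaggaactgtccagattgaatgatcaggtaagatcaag
SIP1-1: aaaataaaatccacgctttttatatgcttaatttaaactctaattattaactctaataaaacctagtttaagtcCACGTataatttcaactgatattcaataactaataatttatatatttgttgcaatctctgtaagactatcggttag

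Among the 6 tested NIPs, 0 rose and 2 fell with ABA in OK100-oct, and 1 rose and 3 fell in wild type. NIP1-1 (AT4G19030), a channel permeable to arsenite in roots, fell most of all members in both genotypes. It was at 1.67, 1.07 and 1.51 CPM in OK100-oct with ABA, against 13.6, 8.02 and 11.5 CPM in OK100-oct control, a log2 fold change of -2.96 ± 0.24 (SE, adjusted p = 6.09e-07, edgeR). Wild type had 0.638, 0.670 and 0.643 CPM with ABA, against 4.11, 2.78 and 4.47 CPM in control, a log2 fold change of -2.54 ± 0.29 (SE, adjusted p = 4.57e-06, edgeR). The 4 groups did not overlap. NIP5-1 (AT4G10380), the boric acid uptake channel of roots, fell in both genotypes as well, with log2 fold changes of -0.74 in OK100-oct and -0.69 in wild type (edgeR's adjusted p = 0.000565 and 0.000532).

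NIP1-2 was the NIP that rose in wild type. It was at 11.8, 12.6 and 12.3 CPM in OK100-oct with ABA, against 9.70, 11.0 and 10.3 CPM in OK100-oct control (log2 fold change 0.24, adjusted p = 0.0658, edgeR). The OK100-oct change was called higher with only the 2 groups and without wild-type replicate 2 with ABA (adjusted p = 0.0488 and 0.0427, edgeR). Wild type had 19.7, 16.0 and 19.8 CPM with ABA, against 12.5, 11.3 and 12.1 CPM in control (log2 fold change 0.62 ± 0.10 SE, adjusted p = 0.000121, edgeR). The wild-type libraries with ABA stood above the other 3 groups. The ABA change of NIP1-2 in OK100-oct minus that in wild type was -0.38 and did not pass (adjusted p = 0.089, edgeR). Without wild-type replicate 2 with ABA it was called (-0.48, adjusted p = 0.0346, edgeR). NIP3-1 (AT1G31885), a root channel for arsenite, was at 4.71, 3.92 and 3.99 CPM in OK100-oct with ABA and 3.48, 4.48 and 3.80 CPM in OK100-oct control (log2 fold change 0.10, adjusted p = 0.679, edgeR). In wild type NIP3-1 fell to 1.82, 2.22 and 2.14 CPM with ABA, against 5.31, 3.28 and 5.52 CPM in control (log2 fold change -1.19 ± 0.21 SE, adjusted p = 0.000186, edgeR). It shares 9.21% of its exon windows with AT2G21020.

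NIP6-1 (AT1G80760), which distributes boric acid to young shoot tissue, passed in neither genotype in the fit of all libraries with TMM factors. It was at 4.0, 4.07 and 5.70 CPM in OK100-oct with ABA and 3.52, 3.17 and 3.31 CPM in OK100-oct control (log2 fold change 0.47, adjusted p = 0.0535, edgeR). In OK100-oct it was called higher in 4 alternatives, with only the 2 groups and without wild-type control replicate 3 or OK100-oct replicate 1 or 2 with ABA (adjusted p = 0.0424, 0.034, 0.0495 and 0.0494, edgeR). Wild type had 1.91, 2.64 and 2.25 CPM with ABA and 3.11, 2.89 and 2.11 CPM in control (log2 fold change -0.25, adjusted p = 0.315, edgeR), and was called lower there with library totals (-0.55, adjusted p = 0.0395, edgeR). The estimates have opposite signs, and every OK100-oct library with ABA was above every wild-type library with ABA. The ABA change in OK100-oct minus that in wild type was 0.71 and did not pass (adjusted p = 0.0993, edgeR). It was called in 1 of 18 alternatives, without wild-type control replicate 3 (0.87, adjusted p = 0.0346, edgeR). The gene overlaps AT1G80750 on the opposite strand without sharing a whole 50-base window.

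SIP1-1 rose in both genotypes with little spread between libraries. It was at 70.9, 73.1 and 71.3 CPM in OK100-oct with ABA, against 51.5, 51.3 and 51.3 CPM in OK100-oct control, a log2 fold change of 0.48 ± 0.07 (SE, adjusted p = 0.000129, edgeR). Wild type had 95.4, 94.0 and 97.3 CPM with ABA, against 52.2, 47.8 and 55.5 CPM in control, a log2 fold change of 0.88 ± 0.07 (SE, adjusted p = 1.78e-07, edgeR). The control groups overlapped and the groups with ABA did not. SIP2-1 (AT3G56950), another channel of the endoplasmic reticulum, rose in wild type (log2 fold change 0.83, adjusted p = 0.00265, edgeR) and had a log2 fold change of 0.27 in OK100-oct (adjusted p = 0.272, edgeR). It shares 8.62% of its exon windows with AT3G56940 on the opposite strand. SIP1-2 (AT5G18290), of the same location in the cell, rose in OK100-oct (0.56, adjusted p = 0.0337, edgeR) and had a log2 fold change of -0.01 in wild type (adjusted p = 0.983, edgeR). The ABA change in OK100-oct minus that in wild type did not pass for SIP2-1 (-0.56, adjusted p = 0.196, edgeR) or SIP1-2 (0.56, adjusted p = 0.2, edgeR). For SIP2-1 it was called without wild-type control replicate 3 (-0.77, adjusted p = 0.0449, edgeR). The rise of SIP1-2 was lost with library totals and without OK100-oct replicates 1 and 3 with ABA or OK100-oct control replicates 1 and 3 (adjusted p = 0.111, 0.0867, 0.126, 0.136 and 0.0663, edgeR).

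The ABA change itself was then compared between the genotypes, as the ABA change in OK100-oct minus that in wild type. It differed for 7 of the 29 members (24.1%), beside 18.2% of all tested genes (edgeR's quasi-likelihood test of the interaction, adjusted p under 0.05). The difference was positive for 4 members, beside 8.62% of all genes, and negative for 3, beside 9.55%. The medians were -0.02 over the members and 0.05 over all genes, and with library totals, which shifted the median of all genes by 0.13, the split was 5 positive and 2 negative. Of the 9 green tissue markers, 4 had a positive difference and 0 a negative one, and of the 9 root markers 0 differed in either direction, and their part in these differences was not tested. PIP1-4 (-0.96 ± 0.20 SE, adjusted p = 0.00545, edgeR), PIP2-5 (-1.15 ± 0.21, adjusted p = 0.00221, edgeR) and SIP1-1 (-0.40 ± 0.10, adjusted p = 0.0147, edgeR) had a smaller log2 fold change with ABA in OK100-oct than in wild type. The difference of SIP1-1 did not pass with library totals (-0.27, adjusted p = 0.0638, edgeR).

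The positive differences had more than 1 form. PIP2-3 (0.88 ± 0.21 SE, adjusted p = 0.0119, edgeR) and NIP3-1 (1.30 ± 0.28, adjusted p = 0.00684, edgeR) fell with ABA in wild type and had changes near 0 in OK100-oct. TIP2-1 (0.93 ± 0.25 SE, adjusted p = 0.0203, edgeR) and TIP2-2 (0.52 ± 0.15, adjusted p = 0.0261, edgeR) rose in OK100-oct, and their change in wild type did not pass with all libraries and TMM factors. The TIP2-1 difference was lost without OK100-oct replicate 1 or 3 with ABA or wild-type replicate 3 with ABA (adjusted p = 0.0511, 0.0546 and 0.0573, edgeR). The TIP2-2 difference was lost without OK100-oct replicate 3 with ABA, OK100-oct control replicate 3, or wild-type replicate 1 or 3 with ABA (adjusted p = 0.0739, 0.0626, 0.0541 and 0.0705, edgeR). The third TIP2 gene, TIP2-3, had a difference of 0.75 ± 0.25 (SE) that did not pass (adjusted p = 0.0541, edgeR). It was called in 5 of 18 alternatives, with library totals (0.88, adjusted p = 0.0248, edgeR), with no count filter (adjusted p = 0.0349, edgeR), with DESeq2's Wald test (adjusted p = 0.0459), and without wild-type control replicate 2 or OK100-oct control replicate 2 (adjusted p = 0.0279 and 0.0196, edgeR).

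**Figure D4:**
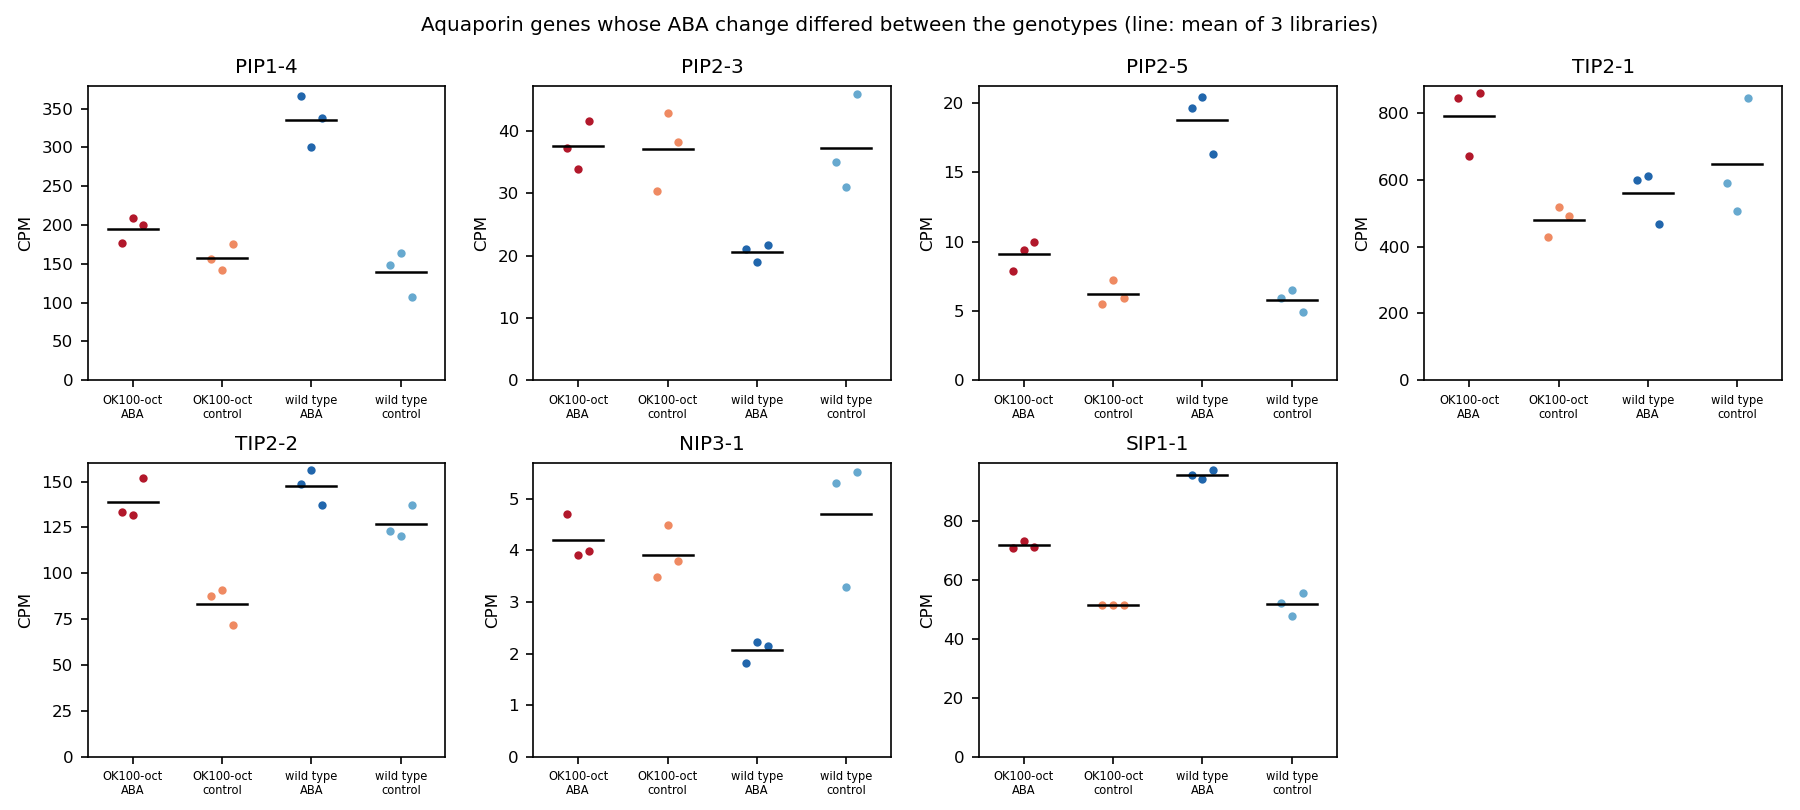
CPM (y axis, from 0) of the 7 aquaporin genes whose ABA change differed between the genotypes, in the 3 libraries of each group (x axis), with the mean as a line. Wild type with ABA stands apart from the other 3 groups for PIP1-4, PIP2-3, PIP2-5, NIP3-1 and SIP1-1, while for TIP2-2 OK100-oct control is the low group (71.9 to 91.2 CPM).

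The 22 members without a called difference included TIP1-2, the most abundant member, but not TIP2-1, which came next in mean level over all libraries. For TIP1-2 the difference was 0.32 with a 95% interval of -0.17 to 0.81, for PIP2-7 it was 0.11 (-0.22 to 0.44), for PIP1-2 it was 0.29 (-0.19 to 0.77) and for PIP1-3 it was -0.22 (-0.68 to 0.24). The narrowest intervals were those of TIP1-1 (-0.31 to 0.19) and PIP2-6 (-0.39 to 0.18). NIP1-1, with the steepest fall in both genotypes, had a difference of -0.42 and a wide interval of -1.29 to 0.45. A difference that did not pass does not show that the genotypes responded alike.

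Without ABA, 5 of the 29 members (17.2%) differed between OK100-oct and wild type, beside 4.87% of all tested genes. Of the 29, 2 were higher and 3 lower in OK100-oct, beside 2.58% and 2.29% of all tested genes, and the median was -0.01 over the members and -0.00 over all genes. With library totals 1 was higher and 3 were lower. Of the 9 root markers 0 differed between the genotypes without ABA, and of the 9 green tissue markers 1 was higher. Estimates of the root markers ran from -1.09 to 0.51 on the log2 scale. The part of both marker lists in the differences of the aquaporins was not tested. All 3 aquaporin genes that were lower were TIPs. TIP2-3 had 11.3, 15.5 and 10.1 CPM in OK100-oct control, against 26.0, 23.1 and 35.1 CPM in wild type control, a log2 fold change of -1.19 ± 0.18 (SE, adjusted p = 0.00365, edgeR). TIP2-2 had 87.5, 91.2 and 71.9 CPM in OK100-oct control, against 123, 120.2 and 137 CPM in wild type control, a log2 fold change of -0.60 ± 0.10 (SE, adjusted p = 0.00661, edgeR). In both, the genotypes did not overlap, and both calls were lost when only these 2 groups were fitted (adjusted p = 0.0504 and 0.0788, edgeR). TIP3-2 was lower by -2.10 ± 0.47 (SE, adjusted p = 0.0255, edgeR), or -1.25 without wild-type control replicate 3, where the call was lost (adjusted p = 0.0633, edgeR), as it was without OK100-oct control replicate 1 or 3 (adjusted p = 0.0959 and 0.0892, edgeR) and with only these 2 groups (adjusted p = 0.129, edgeR).

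NIP1-1 was the member most raised in OK100-oct without ABA. Its 13.6, 8.02 and 11.5 CPM in OK100-oct control, against 4.11, 2.78 and 4.47 CPM in wild type control, gave a 2.90-fold difference (log2 1.53 ± 0.21 SE, adjusted p = 0.00182, edgeR) that passed under all 19 alternatives. PIP2-8 was higher by 0.45 ± 0.12 on the log2 scale (adjusted p = 0.0437, edgeR), at 26.2, 23.2 and 25.0 CPM in OK100-oct control against 21.3, 15.0 and 18.1 CPM in wild type control. That call passed under only 5 of 19 alternatives and was lost without any 1 of 11 of the 12 libraries, the exception being wild-type control replicate 1.

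**Figure D5:**
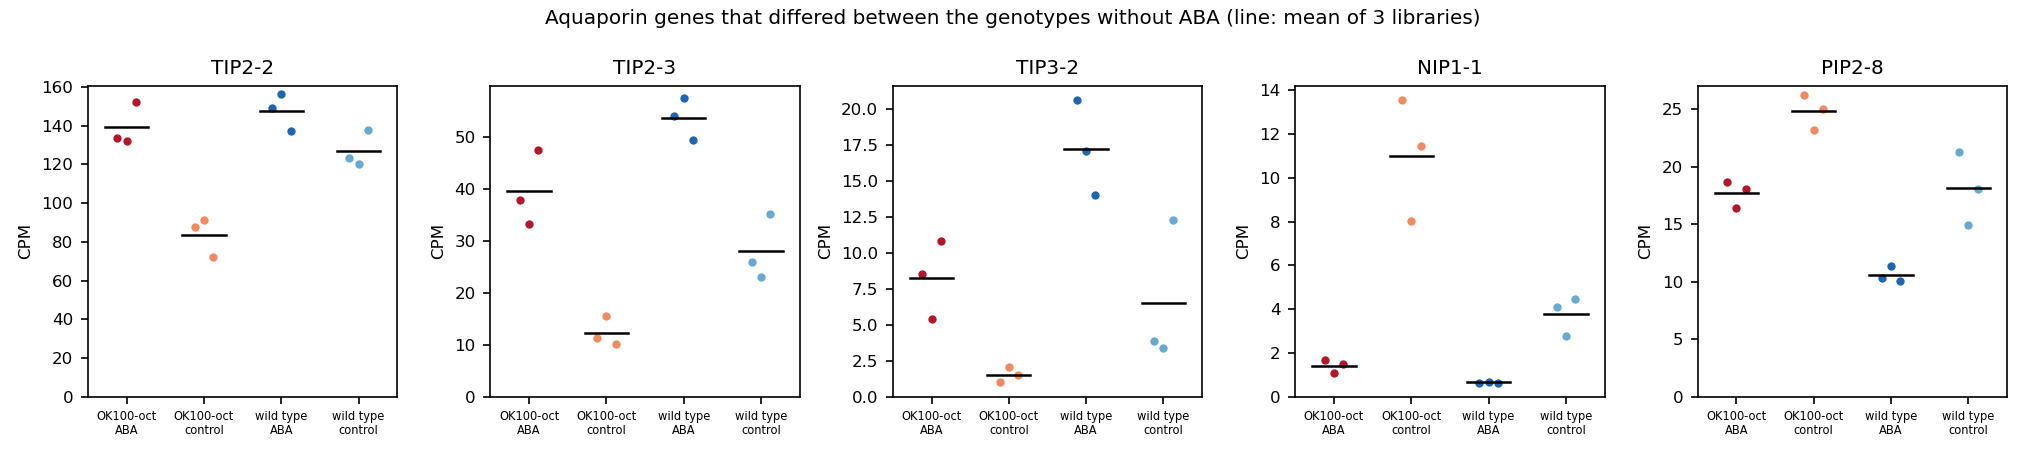
CPM (y axis, from 0) of the 5 aquaporin genes that differed between OK100-oct and wild type without ABA, in the 3 libraries of each group (x axis), with the mean as a line. OK100-oct control is the lowest group for the 3 TIP genes and the highest for NIP1-1 and PIP2-8, and wild-type control replicate 3 (12.3 CPM) stands out for TIP3-2.

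With ABA, 8 members were higher and 5 lower in OK100-oct than in wild type, beside 21.3% and 20.7% of all tested genes, with medians of -0.05 over the members and 0.02 over all genes. With library totals 10 were higher and 4 lower, and the median of all genes shifted by 0.14. With DESeq2 size factors 7 were higher and 7 lower, with DESeq2's Wald test 8 and 6, and with only the 2 groups 10 and 9. Of the 9 green tissue markers 8 were higher and 0 lower in OK100-oct in this comparison, and of the 9 root markers 1 was higher, and their part in the differences of the aquaporins was not tested. The 8 that were higher were PIP1-5, PIP2-2, PIP2-3, PIP2-8, TIP2-1, NIP1-1, NIP3-1 and NIP6-1. The largest differences were those of NIP1-1 (log2 1.11, adjusted p = 0.014, edgeR), NIP3-1 (1.03, adjusted p = 0.00162, edgeR), NIP6-1 (1.02, adjusted p = 0.00127, edgeR), PIP2-3 (0.87, adjusted p = 0.000544, edgeR) and PIP2-8 (0.74, adjusted p = 0.000329, edgeR). NIP1-1 did not pass without OK100-oct replicate 1 with ABA (log2 0.99, adjusted p = 0.0506, edgeR).

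The smaller of these differences were close to the threshold. PIP2-2 was higher by 0.33 (adjusted p = 0.0415, edgeR) and passed under 10 of 19 alternatives. It was lost with DESeq2 size factors, with the replicate block, and without any 1 of 7 libraries (OK100-oct with ABA 1, 2 or 3, OK100-oct control 3, wild type with ABA 2 or 3, wild type control 1), with log2 fold changes of 0.27 to 0.33 and adjusted p of 0.0513 to 0.143 (edgeR). TIP2-1 was higher by 0.50 (adjusted p = 0.0348, edgeR) and was lost without OK100-oct replicate 1 or 3 with ABA or wild-type replicate 1 or 3 with ABA (adjusted p = 0.102, 0.113, 0.0572 and 0.139, edgeR), and with the replicate block (adjusted p = 0.0554, edgeR).

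The 5 that were lower were PIP1-4 (-0.78, adjusted p = 0.000773, edgeR), PIP2-5 (-1.05, adjusted p = 7.27e-05, edgeR), TIP3-2 (-1.06, adjusted p = 0.0377, edgeR), NIP1-2 (-0.60, adjusted p = 0.00049, edgeR) and SIP1-1 (-0.41, adjusted p = 0.000475, edgeR). PIP1-4 and PIP2-5 are the pair described as raised by drought. PIP1-3 (-0.40, adjusted p = 0.0505, edgeR) and TIP2-3 (-0.44, adjusted p = 0.0557, edgeR) did not pass, and each was called lower in 8 of 19 alternatives. TIP3-2 was lost under 7 of 19 alternatives, among them DESeq2's Wald test (adjusted p = 0.0712) and leaving out wild-type replicate 1 with ABA (adjusted p = 0.123, edgeR) or replicate 2 (adjusted p = 0.075, edgeR), OK100-oct replicate 1 (adjusted p = 0.0835, edgeR) or replicate 2 with ABA (adjusted p = 0.124, edgeR), or OK100-oct control replicate 3 (adjusted p = 0.0506, edgeR). The comparisons of genotypes, of ABA and of the ABA change share libraries, so a member's values in them are not independent.

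Genes known to act on aquaporin proteins were read in the same fit. Of 10 such partners, 4 rose and 1 fell with ABA in OK100-oct, and 4 rose and 3 fell in wild type, with medians of 0.26 and 0.22 on the log2 scale. That is 50% and 70% of the list, beside 52% and 68.6% of all tested genes called in either direction. TSPO (AT2G47770), which binds PIP2-7 and leads it to degradation, had the largest change. It had 259, 404 and 430 counts in OK100-oct with ABA and 2, 4 and 3 counts in OK100-oct control, against 3251, 2997 and 2596 counts in wild type with ABA and 5, 2 and 4 in wild type control. Its ABA change was smaller in OK100-oct by 2.44 on the log2 scale (-2.44 ± 0.75 SE, adjusted p = 0.0377, edgeR), an estimate that depends on the few counts of the controls. The lowest log2 fold change was that of the receptor kinase gene SIRK1 (AT5G10020), which acts on PIP2-4, with -0.49 in OK100-oct and -0.81 in wild type (edgeR's adjusted p = 0.000339 and 1.99e-06). SYP121 (AT3G11820), a SNARE that delivers PIP2 proteins to the plasma membrane, fell in wild type (-0.69, adjusted p = 8.55e-05, edgeR) and had a log2 fold change of -0.21 in OK100-oct (adjusted p = 0.111, edgeR), a difference of 0.48 (adjusted p = 0.0449, edgeR). SYP121 was named after its values were seen.

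Other lists of the ABA response and of membrane transport give the scale of these changes. Of all tested genes, 25.9% rose and 26.1% fell with ABA in OK100-oct, and 32.2% rose and 36.4% fell in wild type. All 9 clade A PP2C phosphatase genes, which ABA signaling induces, rose in wild type with a median log2 fold change of 4.88, and 8 rose in OK100-oct with a median of 3.73. Among 9 tested plasma membrane proton pump genes (AHA), 6 rose and 0 fell with ABA in OK100-oct, and 2 rose and 1 fell in wild type. The highest of these was AHA3 (AT5G57350) in wild type, at 1.15 (adjusted p = 7.75e-08, edgeR), and the lowest AHA2 (AT4G30190), at -0.53 (adjusted p = 0.0164, edgeR). Of the 9 green tissue markers, 1 rose and 3 fell with ABA in OK100-oct and 8 fell in wild type, and of the 9 root markers 4 rose and 1 fell in OK100-oct and 4 rose in wild type.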

How the data were processed

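The authors trimmed the reads with Trimmomatic (0.36 per the labels), mapped them to TAIR10 with HISAT2 (2.1.0), counted them per gene with HTSeq (0.9.1), and deposited raw counts that are not normalized, as whole numbers for 12 libraries. The study's methods name other versions of Trimmomatic and HTSeq and another RNA and library kit, so these are uncertain, and the strand setting is not given in the sources used here. Reads of overlapping or similar genes may therefore be shared.

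For the tests, edgeR 4.0.16 (R 4.3.3) was run on the deposited counts, with TMM factors, filterByExpr by group, a single quasi-likelihood fit of the 4 groups over all 12 libraries and Benjamini-Hochberg adjustment over the 20617 genes tested. Of 33602 genes, 7241 had no counts. A call is an adjusted p under 0.05, and a stricter threshold adds a change of at least 3-fold. The biological coefficient of variation was 11.9%, and floors for counts of 0 cover counting error only. Exon lengths, 50-base shared windows and sequences come from RefSeq TAIR10.1. The method was tested on simulated counts. Values in every library were given for members that passed 3-fold with ABA, differed by genotype or in the ABA change, or were the most abundant of their subfamily, and from other lists for the largest and smallest change. The members and lists were chosen with earlier results of these data known. Alternatives were DESeq2 size factors, DESeq2 1.42.0, library totals, other count filters, a replicate block, fits of only the groups compared and leaving out each library. Python 3.11.15 and matplotlib 3.10.9 made the figures.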

Additional observations from a re-analysis of the deposited data

Results flagged for a closer look

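The ABA change differed between OK100-oct and wild type by a direct test (edgeR's quasi-likelihood test of the interaction, adjusted p under 0.05) for 7 aquaporin genes. Given as the log2 fold change with ABA in OK100-oct minus that in wild type, the differences were -0.96 for PIP1-4, 0.88 for PIP2-3, -1.15 for PIP2-5, 0.93 for TIP2-1, 0.52 for TIP2-2, 1.30 for NIP3-1 and -0.40 for SIP1-1. PIP1-4, PIP2-3, PIP2-5 and NIP3-1 passed under all 18 alternatives run for this comparison, SIP1-1 under 17, TIP2-1 under 15 and TIP2-2 under 14. Groups of 3 libraries are too small for a test of single outlying libraries.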

How the results depend on the processing

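Over the alternatives that kept all libraries, 933 values of single members kept their side of the threshold, 28 gained a call and 18 lost one, and none of the called values changed sign. When each library was left out in turn, 1664 kept it, 21 gained a call and 55 lost one. With the added 3-fold minimum, the members called with ABA were 2 higher and 1 lower in OK100-oct and 1 higher and 1 lower in wild type, and those differing by genotype were 0 higher and 1 lower without ABA and 0 higher and 0 lower with ABA. For OK100-oct against wild type with ABA, 8 members were lower without a count filter and 9 when only these 2 groups were fitted. Without ABA, 1 member was higher with library totals, with only the 2 groups and with the replicate block, and 0 were lower with only the 2 groups. Without 1 library at a time, the interaction called 2 to 5 members positive, the comparison with ABA 4 to 8 higher and 4 to 8 lower, and that without ABA 1 to 2 higher and 2 to 3 lower. Over all genes, library totals gave 4242 higher and 10516 lower with ABA in wild type, against 6636 and 7500 with TMM factors, and 3027 positive and 1377 negative interactions, against 1778 and 1969, and 6336 higher and 2799 lower by genotype with ABA, against 4399 and 4276. Without ABA the genotypes differed in 532 genes upward and 472 downward, against 63 and 48 with only the 2 groups, 349 and 277 with the replicate block and 845 and 729 with DESeq2.

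The replicate numbers were not taken to pair the libraries. Deviations from the group means correlated at -0.376 to 0.274 between same-numbered libraries, and 2 of 12 pairs exceeded 0.1. Deviations within a group of 3 libraries are tied to each other, so these correlations cannot exclude a shared plate or batch. Fitted as a replicate block, the replicate numbers gave 14 higher and 4 lower members with ABA in OK100-oct, 14 and 6 in wild type, 4 positive and 3 negative interactions, 6 higher and 6 lower by genotype with ABA, and 1 higher and 3 lower without ABA. In 2 of the 12 pairs the correlation was higher than with any other number. Low counts limit NIP7-1 and the 6 genes that were not tested.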
